A study of Mus musculus with 6 samples.

Results

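Sugars and amino acids cross cell membranes through carriers of the solute carrier (SLC) superfamily, which is sorted into families by sequence. Members were the genes whose symbol places them in SLC family 1, 2, 3, 6, 7, 36, 38 or 43, and 70 of the 17778 genes listed in the file met this rule. Colon RNA had been sequenced in 3 obesity-prone (OP) mice and 3 obesity-resistant (OR) mice. All 6 were male wild-type C57BL/6J mice, 21 weeks old, that had eaten a high-fat diet (60% fat) for 16 weeks. OP mice came from the upper quartile and OR mice from the lower quartile of body weight gain on this diet, so the groups were set by the weight response of like animals under 1 diet and not by an allele or a drug. No mice on a control diet were sequenced.

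In the gut, sodium-coupled or proton-coupled carriers of the luminal membrane take nutrients into epithelial cells, and exchangers and facilitative carriers pass them on to the blood. Family 2 holds the GLUT carriers of hexoses. Family 1 holds carriers of glutamate and of small neutral amino acids, family 6 sodium- and chloride-coupled carriers, families 36 and 38 proton- and sodium-coupled carriers of small amino acids, and family 43 carriers related to system L, the sodium-independent route for large neutral amino acids. The heavy chains of family 3 carry no substrate themselves and bring light chains of family 7 to the membrane. The symbols reach wider than sugars and amino acids: *Slc6a8* carries creatine, *Slc6a6* taurine, *Slc6a4* serotonin, *Slc2a9* urate, *Slc2a13* myo-inositol and *Slc43a3* purine nucleobases.

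The 6 libraries differed from each other in ways the groups do not describe. OP mouse 1 had the lowest median FPKM of the genes tested, 7.67, against 9.46 to 10.7 in the other 5 mice. It was also the lowest of the 6 mice in 29 of the 46 transporter genes tested (63%), and in 54.4% of all genes tested. The markers of colon epithelium were present in every mouse: *Epcam*, an adhesion molecule of epithelial cells, had between 935 and 1188 FPKM. *Lct*, the lactase of the small intestine, and *Gata4*, a transcription factor of its proximal part, were below 1 FPKM in every mouse. Other genes of the small intestinal list were not absent: *Fabp2*, which the colon also expresses, had 665 to 2393 FPKM, *Rbp2* 8.49 to 166 FPKM, *Apob* 15.7 to 56.5 FPKM and *Fabp6* 1.03 to 74.2 FPKM. Which stretch of the colon was taken was not given in the sources used here. Smooth muscle markers were present as well. Adipocyte markers were too, but *Adipoq*, *Plin1*, *Lep*, *Cfd* and *Retn* were at 0 FPKM in OP mouse 2. In such whole tissue, fewer cells of a type and less RNA per cell cannot be told apart.

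None of the 46 transporter genes tested passed the thresholds of the study, a q-value below 0.2 together with a ratio OP/OR of 1.2 or more, or of 0.83 or less. Expression was compared with limma-trend on log2(FPKM + 1), where FPKM stands for fragments per kilobase of transcript per 1000000 mapped fragments and q-values are adjusted over all 13520 genes tested. The counts of transporter genes called were 0 higher and 0 lower in OP mice, beside 0% and 0.0222% of all genes tested. Over all genes tested, limma-trend called 0 higher and 3 lower. The study itself used another test, DESeq2, and reported more genes in both directions at these thresholds. At an unadjusted limma-trend p below 0.05, 2 transporter genes were higher in OP mice (4.35%, beside 0.503% of all genes) and 1 was lower (2.17%, beside 3.53%). *Slc6a14*, a carrier of neutral and cationic amino acids, and *Slc6a8*, the creatine carrier, were the 2 higher ones, and *Slc43a3* was the lower one. OP mice all stood above OR mice in the same 2 genes (4.35%, beside 1.63% of all genes) and all below them in 4 genes (8.70%, beside 6.81%). The 4 were *Slc43a3*, *Slc6a6*, *Slc6a9* and *Slc7a2*. Of these, *Slc7a2* reached 0.5 FPKM, the level needed for testing, in 3 OR mice and 0 OP mice, so it could be counted only as lower.

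Most of the transporter genes were low in this tissue, and a few carried most of the RNA. On the FPKM scale, which is per length and allows genes to be compared, 2 members averaged at least 100 over the 6 mice, 12 averaged 10 to under 100, 26 averaged 1 to under 10 and 30 averaged less than 1. The 2 highest were *Slc6a14* and *Slc2a1*, the glucose carrier GLUT1 that most cells use. Behind them came *Slc1a5*, an exchanger of glutamine and other neutral amino acids, *Slc6a8*, the cystine heavy chain *Slc3a1*, the glutamine carrier *Slc38a2*, the taurine carrier *Slc6a6*, the heavy chain *Slc3a2*, the putative carrier *Slc38a10* and *Slc7a7*, a light chain for basic amino acids. The ranges of neighbours in this order overlapped in every case, although within each of the 6 mice *Slc6a14* lay above *Slc2a1*.

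**Figure D1:**
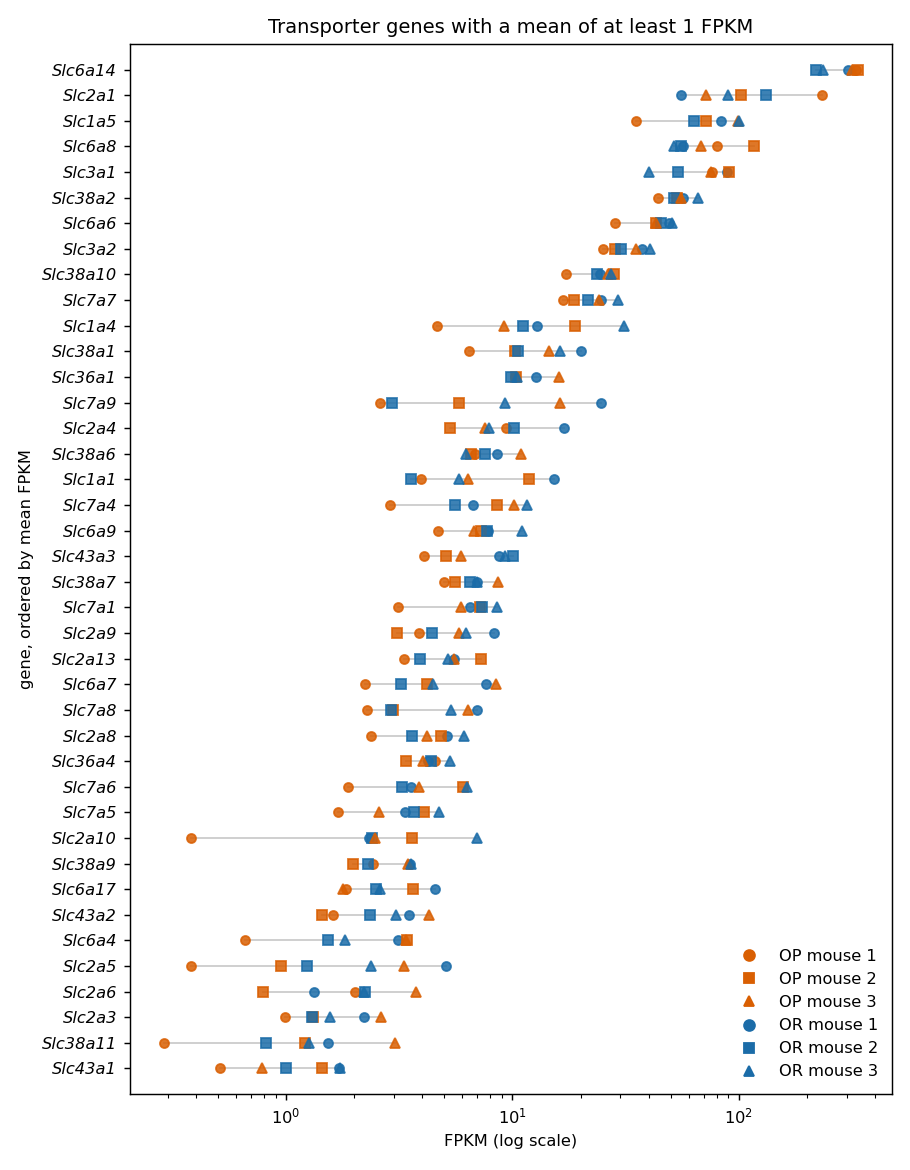
FPKM on a log axis for the 40 transporter genes that averaged at least 1 FPKM, 1 row per gene in order of the mean, with 1 point per mouse (orange, OP; blue, OR) and a grey line from the lowest to the highest mouse. *Slc6a14* stands at the top with 220 to 335 FPKM, and in most rows the 2 colours are mixed.

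Together the 70 members summed to 984, 1052 and 1014 FPKM in OP mice 1, 2 and 3 and to 1013, 843 and 943 FPKM in OR mice 1, 2 and 3. The groups overlapped, with means of 1017 ± 33.9 FPKM (SD, n = 3) and 933 ± 85.5 FPKM (SD, n = 3) and a two-sided exact permutation p of 0.2. For 3 mice against 3 this test has 20 arrangements and cannot give a p below 0.1. *Slc6a14* alone made up 25.0% to 33.3% of the sum of a mouse. By family, the 18 genes of SLC6 held 43.3% of the sum over the mice, SLC2 15.3%, SLC38 11.5%, SLC3 10.6%, SLC1 10.2%, SLC7 6.39%, SLC36 1.69% and SLC43 1.15%.

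*Slc6a14* encodes ATB0,+, a sodium- and chloride-coupled carrier of neutral and cationic amino acids found on the luminal side of the colon. It had 328, 335 and 317 FPKM in OP mice 1, 2 and 3 and 303, 220 and 236 FPKM in OR mice 1, 2 and 3. The OP mice lay close together, and OR mouse 1 came closest to them. The means were 327 ± 9.21 FPKM (SD, n = 3) and 253 ± 44.3 FPKM (SD, n = 3), a ratio of 1.29. On the log2(FPKM + 1) scale the fold change OP/OR was 0.38 (standard error, SE, 0.15, unadjusted p = 0.0388, adjusted p = 0.945 from limma-trend). With each mouse left out in turn it lay between 0.29 and 0.52 with an unadjusted limma-trend p of 0.013 to 0.141. It was above 0.05 in limma-trend without OP mouse 1, OP mouse 2, OP mouse 3, OR mouse 2 or OR mouse 3, in limma without trend (0.0568), with sample weights (0.0601) and in the fit with the replicate block (0.0657). *Slc6a19* took its place below 0.05 without OP mouse 1 and with sample weights.

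*Slc6a8* encodes the creatine carrier CRT. It had 80.4, 117 and 67.9 FPKM in OP mice 1, 2 and 3 and 56.6, 55.8 and 51.6 FPKM in OR mice 1, 2 and 3. The OR mice were nearly equal, while OP mouse 2 stood well above the other OP mice. The means were 88.4 ± 25.4 FPKM (SD, n = 3) and 54.6 ± 2.69 FPKM (SD, n = 3), a ratio of 1.62. The log2 fold change was 0.65 (SE 0.20, unadjusted p = 0.0136, adjusted p = 0.945 from limma-trend). Without OP mouse 2 it was 0.43, the lowest value with a mouse left out, and over these 6 fits the unadjusted limma-trend p stayed between 0.00455 and 0.0423. Markers of colon epithelium, among whose cells *Slc6a14* is known to be expressed, summed to 39058, 26645 and 22567 FPKM in the OP mice and to 23600, 38300 and 24269 FPKM in the OR mice. Of the 15 markers, 11 had a log2 fold change above 0 and 0 passed an unadjusted limma-trend p of 0.05, with a median of 0.19 (0.10 to 0.24 with each mouse left out). The gene *Car1*, a carbonic anhydrase, set the order of these sums with 14584 FPKM in OP mouse 1 and 15723 FPKM in OR mouse 2 against 1054 to 6339 FPKM in the others. Without it the 14 other markers summed to 24473, 25590 and 17732 FPKM in the OP mice and 18345, 22577 and 17930 FPKM in the OR mice. These sums were highest in OP mouse 2 and OP mouse 1, as *Slc6a14* and *Slc6a8* were, but the rest of the order differed. OP mouse 3 had the lowest sum but more of both genes than any OR mouse. OR mouse 2 came next after OP mouse 1 in the sum but had the lowest *Slc6a14*, 220 FPKM. The part of epithelial content in both genes was not tested.

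*Slc43a3* encodes a facilitative carrier of purine nucleobases, and it had the smallest p among the transporter genes. It had 4.06, 5.11 and 5.91 FPKM in OP mice 1, 2 and 3 and 8.70, 10.1 and 9.25 FPKM in OR mice 1, 2 and 3. No OP mouse came near the OR mice, whose values lay close together. The means were 5.03 ± 0.928 FPKM (SD, n = 3) and 9.34 ± 0.695 FPKM (SD, n = 3), 1.86 times as high in OR mice. The log2 fold change was -0.79 (SE 0.19, unadjusted p = 0.00343, adjusted p = 0.798 from limma-trend), and with each mouse left out it lay between -0.89 and -0.67. Its unadjusted p was below 0.05 in the fit over 6 mice and in all 14 alternatives, and its q-value was not below 0.2 in any of them.

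Markers of some other cell types were, like *Slc43a3*, lower in OP mice. All 12 blood endothelium markers had a log2 fold change below 0, beside 70.1% of all genes tested. Of the 12, 10 were lower at an unadjusted limma-trend p below 0.05, beside 3.53% of all genes. Their median was -0.78 (-0.91 to -0.61 with each mouse left out). Their summed level was 20.7 to 33.4 FPKM in OP mice and 37.6 to 62.9 FPKM in OR mice, which do not overlap, and *Pecam1* and *Cdh5*, which define this cell type, were above 0 in every mouse. Fibroblast markers were lower in 12 of 12 genes (median -0.89), 9 of them at an unadjusted limma-trend p below 0.05. Their sums were 96.8 to 177 FPKM in OP mice and 262 to 512 FPKM in OR mice. Macrophage markers were lower in 11 of 12 (median -0.85), 9 of them at an unadjusted limma-trend p below 0.05, with overlapping sums of 106 to 300 FPKM and 215 to 279 FPKM. The part of these cell types in the difference of *Slc43a3* was not tested.

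**Figure D2:**
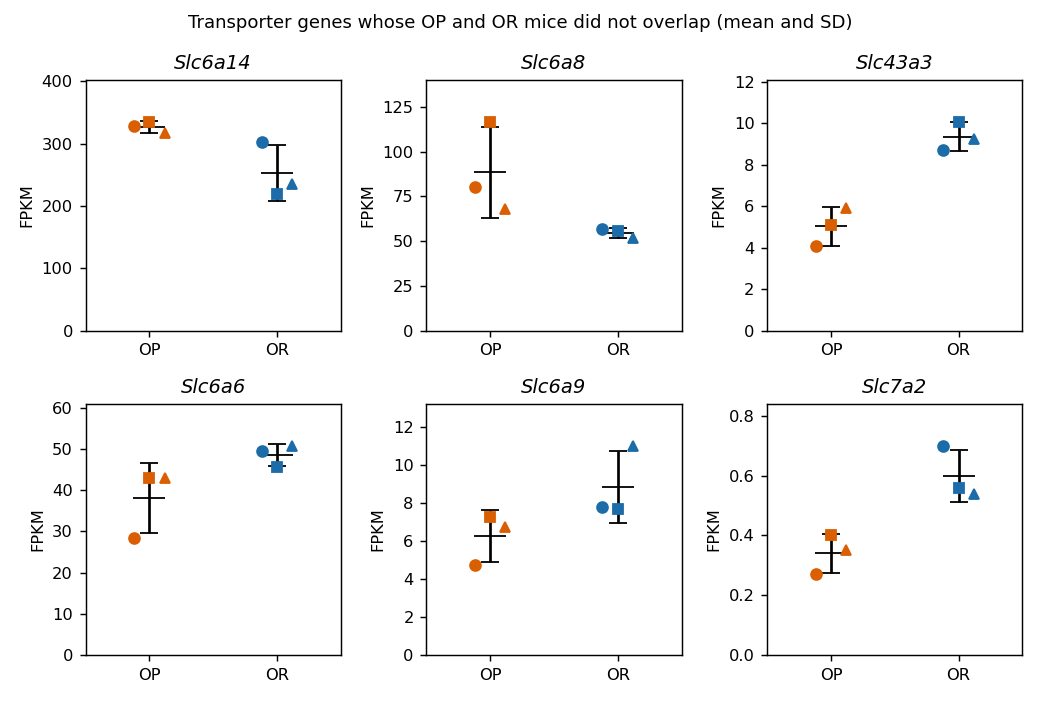
FPKM in each mouse for the 6 transporter genes, among the 46 tested, whose OP mice (orange) and OR mice (blue) did not overlap, each on an axis from 0, with the mean as a horizontal line and the SD as error bars. *Slc6a14* and *Slc6a8* are higher in the 3 OP mice and *Slc43a3*, *Slc6a6*, *Slc6a9* and *Slc7a2* are lower in them.

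The other 3 genes with separate groups had larger limma-trend p-values. *Slc6a6*, the taurine carrier, had 28.3, 42.96 and 42.94 FPKM in the OP mice and 49.4, 45.5 and 50.8 FPKM in the OR mice. Only OP mouse 1 was far below the OR mice, and without it the log2 fold change moved from -0.37 (SE 0.18, limma-trend adjusted p = 0.945) to -0.17. *Slc6a9*, the glycine carrier GLYT1, had 4.71, 7.28 and 6.76 FPKM in the OP mice and 7.78, 7.70 and 11.0 FPKM in the OR mice, a log2 fold change of -0.44 (SE 0.23, limma-trend adjusted p = 0.945). *Slc7a2*, a carrier of cationic amino acids such as arginine, had 0.27, 0.40 and 0.35 FPKM in the OP mice and 0.70, 0.56 and 0.54 FPKM in the OR mice (adjusted p = 0.945 from limma-trend). *Slc7a2* passed the filter of 0.5 FPKM in 3 mice through the OR mice alone, so it could enter the comparison only by being higher there. In each of the 6 genes with separate groups the exact permutation p was 0.1, the smallest that 3 mice against 3 allow. Separate groups of this size always give that value, so it adds nothing to the separation by which the genes were chosen.

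Over the 46 transporter genes tested, 33 (71.7%) had a log2 fold change below 0, beside 70.1% of all genes tested. Their median log2 fold change was -0.20, and that of all genes was -0.10. With median-of-ratios scaling between the mice, which moved the median of all genes from -0.10 to 0.01, the median of the transporter genes was -0.10 and 60.9% lay below 0, beside 48% of all genes. Without OP mouse 1 the median was -0.05 and 24 genes lay below 0 and 22 above. The median was -0.12 without OR mouse 1, -0.13 without OR mouse 3, -0.36 without OP mouse 3 and -0.40 without OR mouse 2. Of the 14 genes that averaged at least 10 FPKM, 7 had a 95% interval of the log2 fold change that excluded both a doubling and a halving, and the other 7 did not. Lower genes were not counted, since the log2(FPKM + 1) scale compresses their fold changes. In 35 of the 46 genes the highest mouse had more than 2 times the value of the lowest.

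**Figure D3:**
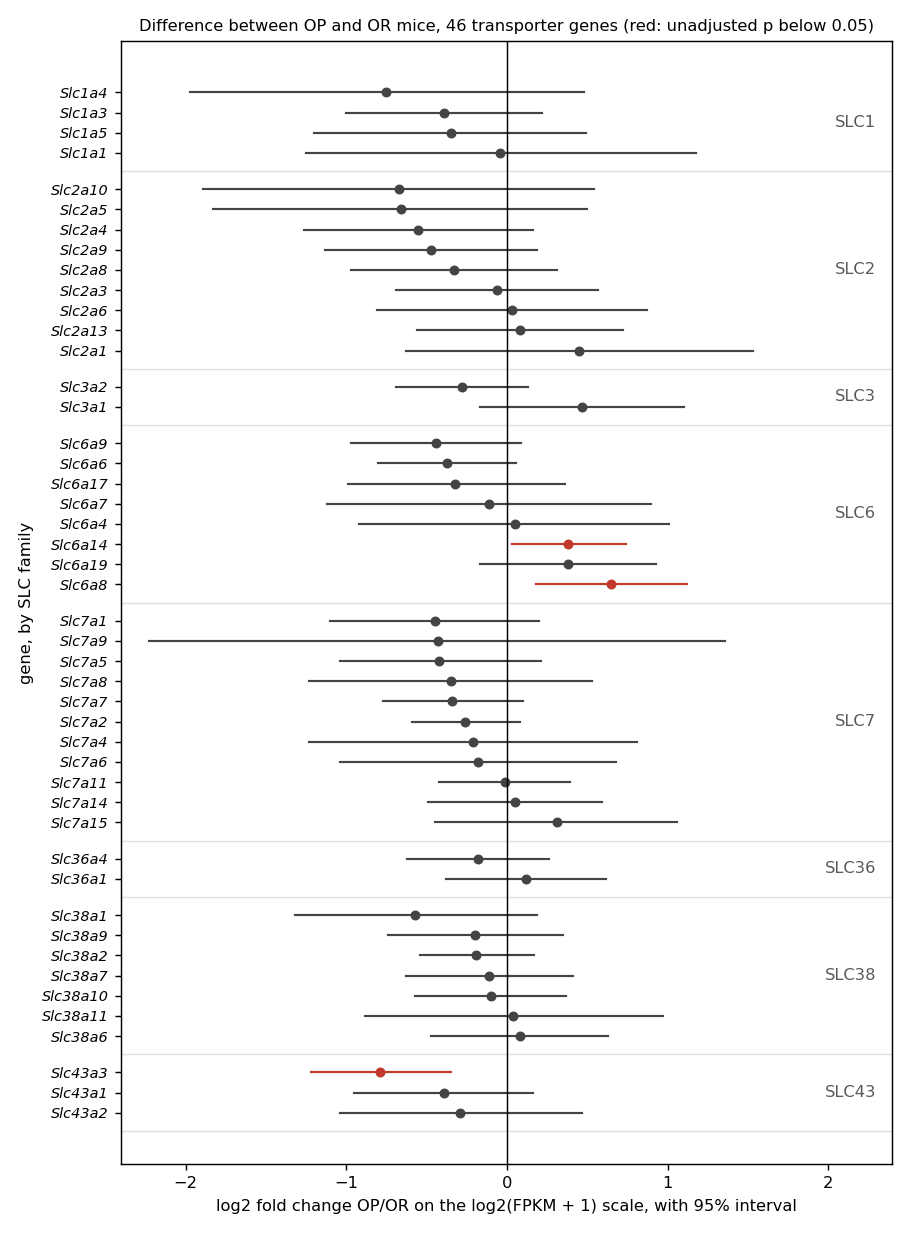
Log2 fold change OP/OR on the log2(FPKM + 1) scale (horizontal axis) with its 95% interval for the 46 transporter genes tested, grouped by SLC family and ordered by value within a family. Red marks an unadjusted limma-trend p below 0.05: *Slc6a8* and *Slc6a14* to the right of 0 and *Slc43a3* to the left.

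Among the hexose carriers of family 2, 9 of 11 listed genes were tested, 3 with a log2 fold change above 0 and 6 below, and 0 passed an unadjusted p of 0.05. The median was -0.33, from -0.50 without OR mouse 2 to -0.19 without OR mouse 3 and -0.09 without OP mouse 1. *Slc2a1* had the widest range among the 10 members with the highest means, with 232, 102 and 71.9 FPKM in OP mice 1, 2 and 3 and 55.8, 132 and 89.3 FPKM in OR mice 1, 2 and 3. OP mouse 1 and OR mouse 2 were the highest and the groups overlapped. Its log2 fold change of 0.45 (SE 0.46, limma-trend adjusted p = 0.945) became -0.02 without OP mouse 1, so the difference rested on that mouse. *Car1*, *Epcam*, *Krt20*, *Vil1* and *Lgals4* were also highest in OP mouse 1 and OR mouse 2. These were the 2 highest mice in 5.13% of all genes tested. The other colon epithelium markers had other pairs of highest mice, and so did the sum of the 14 markers besides *Car1*. The part of colon epithelium in the level of *Slc2a1* was not tested.

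*Slc2a5*, the fructose carrier GLUT5, had 0.38, 0.95 and 3.31 FPKM in the OP mice and 5.09, 1.24 and 2.38 FPKM in the OR mice. It was highest in OR mouse 1 and OP mouse 3, and its log2 fold change was -0.66 (SE 0.50, limma-trend adjusted p = 0.945). That value was -0.31 without OP mouse 1, -0.28 without OR mouse 1, -1.003 without OR mouse 2 and -1.13 without OP mouse 3, the last with an unadjusted limma-trend p below 0.05. The 8 small intestinal epithelium markers tested, of 11 listed, split into 4 above and 4 below 0 with a median of 0.08, which was -0.30 without OP mouse 1 and -0.04 without OR mouse 3. Their summed level, 769 to 2636 FPKM in OP mice and 814 to 1861 FPKM in OR mice, was mostly *Fabp2*. *Sis*, the sucrase-isomaltase of that epithelium, had 10.1 FPKM in OR mouse 1 and 8.76 FPKM in OP mouse 3. The other mice had 0.08 to 3.84 FPKM of it. *Anpep* and *Mttp* had the same 2 highest mice, as did *Slc2a5* and 21.5% of all genes tested. In these 2 markers the second place was nearly a tie. *Anpep* had 5.59 FPKM in OP mouse 3 and 5.5 FPKM in OR mouse 2, and *Mttp* 0.87 FPKM in OR mouse 1 and 0.86 FPKM in OR mouse 2. Of the other markers tested, *Fabp2*, *Rbp2*, *Apoa1* and *Apob* were highest in OP mouse 1 and OR mouse 2. *Fabp6* was highest in OR mouse 1 and OR mouse 3. The part of small intestinal epithelium in the level of *Slc2a5* was not tested. *Slc2a4*, the insulin-regulated GLUT4 of fat and muscle, had 9.42, 5.33 and 7.56 FPKM in the OP mice and 16.8, 10.2 and 7.85 FPKM in the OR mice, with its highest value in OR mouse 1. It was taken up after its values were seen, for the markers that were also highest in sum in that mouse. Adipocyte markers were lower in 9 of 10 genes (median -0.55, but -0.24 without OP mouse 2 and -0.18 without OR mouse 1), with sums of 89.6 to 211 FPKM in OP mice and 160 to 453 FPKM in OR mice, and smooth muscle markers in 10 of 10 (median -0.31, but -0.14 without OP mouse 3 and -0.03 without OR mouse 1), with sums of 1896 to 2808 FPKM and 2277 to 4174 FPKM. Of all genes tested, 70.1% lay below 0. Both sums were highest in OR mouse 1, but the rest of their order differed from that of *Slc2a4*. OP mouse 2, lowest in *Slc2a4*, had 89.6 FPKM of adipocyte markers, the lowest sum, but 2808 FPKM of smooth muscle markers. The part of these cell types in the level of *Slc2a4* was not tested.

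In family 1, 4 of 7 listed genes were tested and all 4 had a log2 fold change below 0, with a median of -0.37 that was -0.09 without OP mouse 1, -0.20 without OR mouse 3 and -0.56 without OR mouse 2. *Slc1a5* had 35.3, 71.6 and 99.0 FPKM in the OP mice and 83.1, 63.7 and 100.1 FPKM in the OR mice. OP mouse 1 was the lowest by far, and without it the log2 fold change moved from -0.35 (SE 0.36, limma-trend adjusted p = 0.945) to 0.06. *Slc1a1*, the glutamate carrier EAAC1 of the gut, had 3.94, 11.8 and 6.35 FPKM in the OP mice and 15.3, 3.56 and 5.80 FPKM in the OR mice, so each group held 1 high mouse. Its log2 fold change was -0.04 (SE 0.52, limma-trend adjusted p = 0.99), and 0.08 with median-of-ratios scaling.

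The heavy chain *Slc3a2*, known as 4F2hc or CD98, had 25.2, 28.3 and 35.3 FPKM in the OP mice and 37.4, 30.1 and 40.6 FPKM in the OR mice, a log2 fold change of -0.28 (SE 0.18, limma-trend adjusted p = 0.945). Its 6 light chain partners of family 7 (*Slc7a5*, *Slc7a6*, *Slc7a7*, *Slc7a8*, *Slc7a10* and *Slc7a11*) summed to a like level in each mouse, above *Slc3a2* in every mouse but OP mouse 1. *Slc3a2* had 0.868 to 1.10 times the FPKM of their sum over the 6 mice. *Slc7a7*, the light chain y+LAT1 that passes basic amino acids to the blood, made up 57.7% to 72.4% of that sum, and it had 16.7, 18.8 and 24.2 FPKM in the OP mice and 24.8, 21.7 and 29.2 FPKM in the OR mice. Its log2 fold change was -0.34 (SE 0.19, limma-trend adjusted p = 0.945), and the groups overlapped. *Slc7a5*, the light chain LAT1, had only 1.70 to 4.73 FPKM, and *Slc7a8*, the light chain LAT2 of absorptive epithelia, 2.28 to 6.97 FPKM.

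The other heavy chain, *Slc3a1* or rBAT, did not follow its light chain from mouse to mouse. It had 75.8, 90.2 and 75.1 FPKM in the OP mice and 88.5, 53.7 and 40.0 FPKM in the OR mice. *Slc7a9*, the light chain with which it takes up cystine and basic amino acids, had 2.60, 5.83 and 16.2 FPKM in the OP mice and 24.7, 2.94 and 9.31 FPKM in the OR mice. OR mouse 1 and OP mouse 3 were highest in *Slc7a9*, and *Slc3a1* had 3.58 to 29.1 times the FPKM of its light chains. *Slc7a13*, which also pairs with it, was at 0 in 5 of the 6 mice and at 0.04 FPKM in OR mouse 3.

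The log2 fold change was 0.47 for *Slc3a1* (SE 0.27, limma-trend adjusted p = 0.945) and -0.43 for *Slc7a9* (SE 0.77, limma-trend adjusted p = 0.952). That of *Slc7a9* was 0.10 without OP mouse 1 and 0.24 without OR mouse 1. *Slc3a1* had an unadjusted limma-trend p of 0.0054 and a log2 fold change of 0.78 without OR mouse 1, and without OR mouse 3 its log2 fold change was 0.21. Markers of enteric neurons and glia were also highest in OP mouse 3 and OR mouse 1, with sums of 98.1 and 98.5 FPKM against 46.3 to 56.4 FPKM in the other mice. Of these 14 markers, 10 had a log2 fold change above 0 and 4 below, and their part in the level of *Slc7a9* was not tested.

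**Figure D4:**
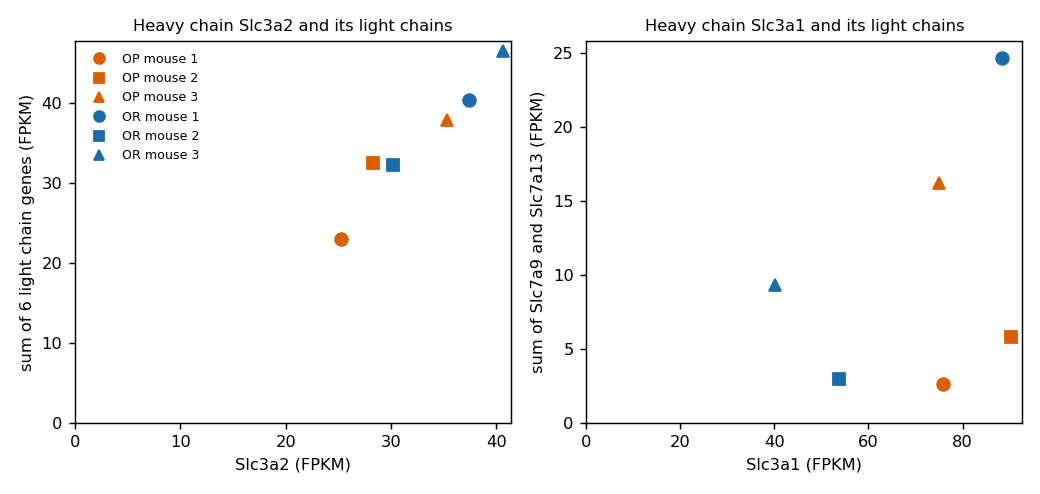
FPKM of a heavy chain (horizontal axis) and the summed FPKM of its light chains (vertical axis) in each of the 6 mice, OP in orange and OR in blue, with both axes from 0. The points of *Slc3a2* lie near 1 line, at 0.868 to 1.10 times the light chain sum, while those of *Slc3a1* scatter from 3.58 to 29.1 times.

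In family 7 as a whole, 11 of 14 listed genes were tested, 2 with a log2 fold change above 0 and 9 below. The median was -0.26, and it was 0.10 without OP mouse 1, -0.12 without OR mouse 3, -0.40 without OP mouse 3 and -0.42 without OR mouse 2. *Slc7a11*, the light chain of the cystine and glutamate exchanger xCT, was low at 0.23 to 0.67 FPKM, with a log2 fold change of -0.01 (SE 0.17, limma-trend adjusted p = 0.989) and 0.02 with median-of-ratios scaling. *Slc7a11* is a known target of ATF4, the transcription factor that is made when amino acids are short, and it shares the amino acid response motif with *Slc7a7*. Both promoters are shown because ATF4 and its targets were measured beside the carriers. The sequences are from RefSeq (mouse build GRCm38.p6, another build than that of the FPKM values), read 5′ to 3′ on the minus strand, with the motif TGATGNAA in capitals on either strand (TTGCATCA is its reverse complement).
*Slc7a11*, chr3:50443627-50443706: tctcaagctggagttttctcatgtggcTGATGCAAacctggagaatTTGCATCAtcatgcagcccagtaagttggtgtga
*Slc7a7*, chr14:54417873-54417952: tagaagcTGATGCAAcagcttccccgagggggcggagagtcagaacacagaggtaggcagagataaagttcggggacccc

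In *Slc7a11* the 2 copies lay 66 to 59 and 47 to 40 bases before the transcription start, and in *Slc7a7* the copy shown lay 243 to 236 bases before 1 of its starts. RefSeq promoter windows, 250 bases before to 50 after a start, were matched for 51 of the 70 transporter genes. The motif was found on either strand in 4 of the 51 (7.84%; *Slc1a4*, *Slc6a21*, *Slc7a7* and *Slc7a11*) and in 4.51% of the 27025 genes with such a window. Other motifs were searched on both strands in the same windows. TATAAA was found in 13.7% of the 51 and 15.7% of all genes, CACGTG in 15.7% and 8.09%, ACGTG, which CACGTG contains, in 35.3% and 21.8%, TTTATGG in 3.92% and 3.21%, GGGGCGG in 31.4% and 25.5%, and CAAAGTCCA in 1.96% and 0.555%. A match describes the letters of the window and says nothing of binding.

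Of the 19 amino acid response genes listed, 18 were tested, 2 with a log2 fold change above 0 and 16 below, and 0 were called. Of all genes tested, 70.1% lay below 0 and 0.0222% were called lower. Their median was -0.21, and it was 0.02 without OP mouse 1, -0.35 without OR mouse 1 and -0.41 without OP mouse 2. *Atf4* itself had 64.0, 87.1 and 90.4 FPKM in the OP mice and 99.7, 90.3 and 159 FPKM in the OR mice, with OR mouse 3 far above the rest (log2 fold change -0.50, SE 0.24, limma-trend adjusted p = 0.945). *Cebpb*, a transcription factor gene induced with it, was the 1 gene of the list with an unadjusted limma-trend p below 0.05. It had 7.90, 9.44 and 10.8 FPKM in the OP mice and 16.9, 11.2 and 19.1 FPKM in the OR mice, which did not overlap (log2 fold change -0.67, SE 0.23, unadjusted p = 0.0206, adjusted p = 0.945 from limma-trend). *Asns*, the asparagine synthetase, had 4.97 FPKM in OP mouse 1 and 10.5 to 17.0 FPKM in the other 5 mice, and the groups overlapped.

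Family 6 had 10 genes below the filter and 8 tested, 4 with a log2 fold change above 0 and 4 below. Its median of -0.03 changed sign with the scaling (0.05 with median-of-ratios) and ranged from -0.22 without OR mouse 2 to 0.21 without OR mouse 1 and 0.32 without OP mouse 1. *Slc6a19*, the neutral amino acid carrier B0AT1 of the small intestine, was low in this tissue. It had 0.41, 1.14 and 1.43 FPKM in the OP mice and 0.66, 0.50 and 0.33 FPKM in the OR mice, a log2 fold change of 0.38 (SE 0.24, limma-trend adjusted p = 0.945). This was 0.61 without OP mouse 1, 0.22 without OP mouse 3 and 0.77 with a pseudocount of 0.1, and the unadjusted limma-trend p was below 0.05 without OP mouse 1 and with sample weights. Summed over the family, SLC6 had 447, 515 and 451 FPKM in the OP mice and 434, 337 and 359 FPKM in the OR mice. The OP mice were all above the OR mice, and *Slc6a14*, already named for its separate groups, made up 65.1% to 73.4% of this sum. The exact permutation p of the sum was 0.1, which separate groups of this size always give. SLC43 also had 0.1, and the sums of the other families had exact permutation p-values of 0.4 to 0.9.

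In family 38, 7 of 11 listed genes were tested, 2 with a log2 fold change above 0 and 5 below, and the median of -0.11 was 0.01 with median-of-ratios scaling, 0.03 without OP mouse 1, -0.07 without OP mouse 2 and -0.32 without OP mouse 3. *Slc38a2* or SNAT2, the widely used sodium-coupled carrier of glutamine and alanine, had the smallest ratio of the highest to the lowest mouse, 1.5, of the members tested. It had 43.8, 53.4 and 55.7 FPKM in the OP mice and 56.9, 51.5 and 65.8 FPKM in the OR mice, with a log2 fold change of -0.19 (95% interval -0.54 to 0.17). *Slc38a1* or SNAT1 had 6.43, 10.2 and 14.5 FPKM in the OP mice and 20.1, 10.6 and 16.3 FPKM in the OR mice. Its log2 fold change was -0.57 (SE 0.32, limma-trend adjusted p = 0.945) and its groups overlapped. It was -0.29 without OP mouse 1 and -0.38 without OR mouse 1, and it passed an unadjusted limma-trend p of 0.05 without OP mouse 3 (-0.82) or OR mouse 2 (-0.81). *Slc38a10* lay between 17.3 and 28.0 FPKM, with a log2 fold change of -0.10 and of 0.04 with median-of-ratios scaling.

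Of the 4 genes of family 36, *Slc36a1* and *Slc36a4* were tested. *Slc36a1*, the proton-coupled carrier PAT1 of small amino acids, had 10.2, 10.4 and 16.04 FPKM in the OP mice and 12.7, 9.84 and 10.5 FPKM in the OR mice. Its log2 fold change of 0.12 (SE 0.21, limma-trend adjusted p = 0.953) was -0.08 without OP mouse 3. The median of the 2 genes, -0.03, was 0.09 with median-of-ratios scaling and 0.06 without OP mouse 2. All 3 genes of family 43 had a log2 fold change below 0, with a median of -0.39 that was -0.24 without OP mouse 1 and -0.64 without OP mouse 3. Besides *Slc43a3* these were the system L carriers *Slc43a1*, or LAT3, with 0.51, 1.44 and 0.78 FPKM in the OP mice and 1.72, 1.00 and 1.73 FPKM in the OR mice, and *Slc43a2*, or LAT4, with 1.61, 1.44 and 4.29 FPKM and 3.50, 2.35 and 3.05 FPKM. Both overlapped between the groups. An unadjusted limma-trend p below 0.05 was reached by *Slc43a1* without OP mouse 2 and by *Slc43a2* without OP mouse 3. Summed, family 43 had 6.18, 7.99 and 11.0 FPKM in the OP mice and 13.9, 13.4 and 14.0 FPKM in the OR mice. *Slc43a3*, already named for its separate groups, made up 53.8% to 75.1% of the sum. The exact permutation p was 0.1, which separate groups of this size always give.

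The 24 transporter genes that did not pass the filter had at most 1.31 FPKM in any mouse. Of these, 11 were below 0.1 FPKM in every mouse, among them the noradrenaline carrier *Slc6a2*, the dopamine carrier *Slc6a3* and the glycine carrier *Slc6a5*. Another 8 were between 0.1 and 0.5 FPKM at their highest, among them the GABA carriers *Slc6a11* and *Slc6a13* and the glial glutamate carrier *Slc1a2*. The last 5, *Slc2a12*, *Slc6a15*, *Slc7a10*, *Slc36a2* and *Slc38a4*, reached 0.5 FPKM in 1 or 2 mice. *Slc7a10* and *Slc36a2*, both known from fat cells, had their highest values in OR mouse 1, at 1.28 and 1.31 FPKM, the mouse with the highest adipocyte sum. The part of adipocytes in this was not tested. In all, 14 members were at 0 in at least 1 mouse.

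Other sugar and amino acid genes gave a like picture, with 0 called in each list. Of all genes tested, 0.0222% were called lower and 0% higher, and 70.1% had a log2 fold change below 0. Of 11 sugar carriers outside the rule, 5 were tested and all 5 had a log2 fold change below 0, with a median of -0.28 that was 0.19 without OP mouse 1, -0.05 without OR mouse 3 and -0.46 without OR mouse 2. *Slc5a1*, the sodium-coupled glucose carrier SGLT1, had 25.6, 47.1 and 61.5 FPKM in the OP mice and 59.4, 31.8 and 51.0 FPKM in the OR mice. Of 15 amino acid and peptide carriers outside the rule that the file lists, 11 were tested, 4 above 0 and 7 below, with a median of -0.11 that was 0.02 with median-of-ratios scaling and from -0.27 to 0.02 with each mouse left out. *Slc15a1*, the peptide carrier PEPT1, had 29.5 FPKM in OP mouse 2 and 2.14 to 8.98 FPKM in the other mice, and *Slc16a10*, the aromatic amino acid carrier TAT1, had 0.91 to 4.10 FPKM. The imino acid carrier *Slc6a20a*, whose symbol ends in a letter, had 0.51 FPKM in OP mouse 2 and 3.38 to 11.5 FPKM in the other mice.

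Of 7 partners and regulators of the carriers in the file, 6 were tested, 4 above 0 and 2 below, with a median of 0.14 (0.07 to 0.25 with each mouse left out). *Arrdc4*, an arrestin-like gene induced by glucose, had 72.8, 45.3 and 44.6 FPKM in the OP mice and 40.2, 41.2 and 33.1 FPKM in the OR mice, without overlap (log2 fold change 0.47, SE 0.21, limma-trend adjusted p = 0.945). Its relative *Txnip*, which lowers glucose uptake by removing GLUT1 from the membrane, had 622, 571 and 837 FPKM in the OP mice and 736, 524 and 540 FPKM in the OR mice, with overlap. All 24 genes of amino acid sensing upstream of the kinase mTORC1 were tested, 10 above 0 and 14 below, with a median of -0.04 that was 0.08 with median-of-ratios scaling and from -0.09 to -0.01 with each mouse left out. Of 13 genes of sugar and fructose handling in the file, 10 were tested, 5 above 0 and 5 below, with a median of -0.02 that was 0.09 with that scaling and from -0.11 to 0.06 with each mouse left out. *Cebpb* was the only gene of these 6 lists, the amino acid response genes included, with an unadjusted limma-trend p below 0.05.

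**Figure D5:**
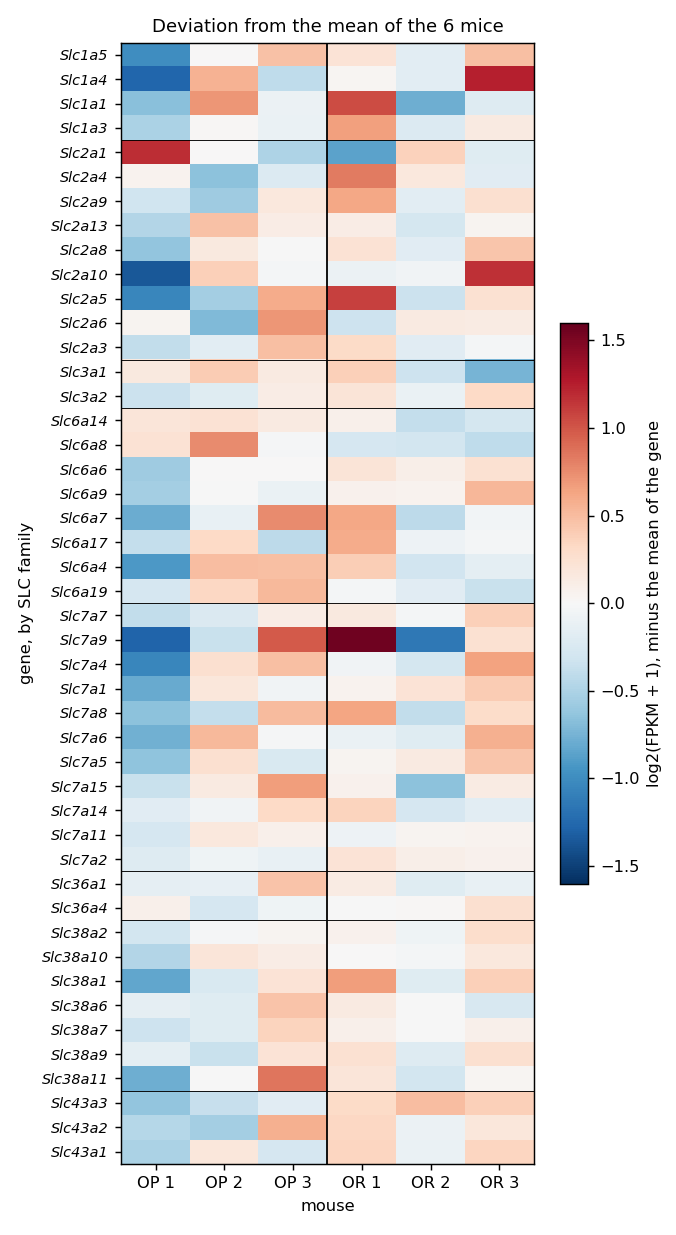
Difference in log2(FPKM + 1) between each mouse (column) and the average over all 6, for the 46 transporter genes tested (rows, grouped by SLC family and ordered by level within a family), with red above and blue below the mean. OP mouse 1 is blue in most rows, being the lowest mouse in 29 of the 46 genes, and OP mouse 3 and OR mouse 1 share red rows such as *Slc7a9* and *Slc2a5*.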

How the data were processed

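Colon RNA was measured in 3 OP and 3 OR mice. The authors enriched mRNA, made strand-specific libraries, sequenced them on DNBSEQ, filtered reads with SOAPnuke, aligned them with Bowtie2 and quantified genes with RSEM. The submitters' processing notes also name HISAT2 2.0.4 and the build GRCm39, and the sources differ on tool versions and gene set. The deposited values are FPKM, given to 2 decimals. They hold no read totals, so the depth of each mouse and the counting error are unknown. The labels number the samples within a group without naming animals. Each was taken as 1 mouse, and otherwise p-values measure only the spread between samples, which may be technical.

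A gene was tested when 3 or more of the 6 mice reached 0.5 FPKM (13520 genes, 46 of the 70 members), with limma-trend (limma 3.58.1, R 4.3.3) on log2(FPKM + 1), without covariates, and q-values were adjusted by Benjamini-Hochberg over all genes tested. This scale understates the change of low genes. For single sums and genes, exact permutation tests, two-sided, were run in SciPy 1.17.1. The fit was tested on simulated data. The members, pathway lists and marker lists were chosen with earlier results of these data known. Genes named are members with an unadjusted p below 0.05 or separate groups, the 10 highest members and gut carriers by role, and pathway genes with an unadjusted p below 0.05 or known in the gut. *Slc2a4*, *Arrdc4*, *Sis*, *Car1*, the other marker genes named and the members named among those not tested were named after their values were seen. The T cell markers (1 of 8 above 0, median -0.40, from -0.72 without OP mouse 3 to -0.14 without OP mouse 1) and the plasma and B cell markers (3 of 8 tested above 0, median -0.23, from -0.60 without OP mouse 3 to -0.05 without OP mouse 1 and -0.01 without OP mouse 2) overlapped between groups in their sums. *Slc2a2* was not analysed here.

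Alternatives were median-of-ratios scaling, rescaling to TPM, limma with sample weights or without the trend, the replicate number as a block, leaving out each mouse, a pseudocount of 0.1, testing all genes above 0 in any mouse, and testing only genes that reach 1 FPKM in every mouse. Leaving out each mouse for the pathway and marker lists, and the sum of colon epithelium markers without *Car1*, were added after seeing the data. Promoters were from RefSeq on GRCm38.p6, matched by symbol.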

Additional observations from a re-analysis of the deposited data

How the results depend on the processing

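Called at a q-value below 0.2 by limma, the transporter genes numbered 0 higher and 0 lower, with all 6 mice and in all 14 alternatives. At an unadjusted p below 0.05 the count of higher genes was 2. It was 1 with limma without trend, 1 with the replicate block (the paired fit) and 1 to 3 when any 1 mouse was dropped. The count of lower genes was 1. It was 3 without a filter on low values, where *Slc7a2* and *Slc38a4* joined *Slc43a3*, and 1 to 6 with a mouse left out. It was 6 without OP replicate 3, 4 without OP replicate 2, and 2 without OR replicate 2 or OR replicate 3. The replicate numbers belong to different mice. The correlations of the deviations of same-numbered mice were -0.144, -0.157 and 0.0709, so the numbers were not taken to pair the mice.

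Of the 24 transporter genes named by the rule, 17 kept their direction in every alternative that could be fitted, and 17 of 328 alternative values changed sign. With median-of-ratios scaling the log2 fold change was 0.0804 for *Slc1a1*, 0.0155 for *Slc7a11* and 0.0352 for *Slc38a10*. With sample weights it was 0.115, 0.073 and 0.0056 for the same genes. With each mouse left out it ranged from -0.4405 to 0.4762 for *Slc1a1*, -0.6749 to 0.0569 for *Slc1a5*, -0.0232 to 0.8158 for *Slc2a1*, -1.116 to 0.2371 for *Slc7a9*, -0.1012 to 0.1194 for *Slc7a11*, -0.0778 to 0.2224 for *Slc36a1* and -0.2216 to 0.1132 for *Slc38a10*. Without OP replicate 1 the sign changed in *Slc1a1*, *Slc1a5*, *Slc2a1*, *Slc7a9*, *Slc7a11* and *Slc38a10*. The median of family 36 was -0.18 with TPM, when more genes passed the filter, and that of family 43 was -0.72 with a pseudocount of 0.1 and -0.64 when OP replicate 3 was dropped. No cause was tested. FPKM without read totals leave the precision of low genes unknown.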

Other observations

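The transporter genes deviated from their group means in step in certain mice of different groups. Over the 46 transporter genes tested, the deviations on the log2(FPKM + 1) scale had a Pearson correlation across genes of 0.688 between OP mouse 1 and OR mouse 2, 0.408 between OP mouse 2 and OR mouse 3 and 0.409 between OP mouse 3 and OR mouse 1. Over all 13520 genes tested these were 0.537, 0.393 and 0.417. The other 6 pairs of an OP and an OR mouse lay between -0.559 and 0.0583 over the transporter genes. These are descriptions: genes are not independent replicates, and the deviations of the 3 mice of a group sum to 0, which ties the 9 correlations to each other.

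OP mouse 3 and OR mouse 1 were the 2 highest of the 6 mice in 11 of the 46 transporter genes (23.9%, beside 21.5% of all genes), among them *Slc2a5*, *Slc7a8*, *Slc7a9* and *Slc36a1*. OP mouse 2 and OR mouse 3 were the 2 highest in 5 (10.9%, beside 9.71% of all genes): *Slc1a4*, *Slc2a10*, *Slc7a5*, *Slc7a6* and *Slc38a10*. *Slc2a10* had 3.62 and 6.96 FPKM in these mice, 0.38 FPKM in OP mouse 1 and 2.32 to 2.47 FPKM in the other 3. *Slc1a4*, a carrier of serine and alanine, had 18.9 and 31.3 FPKM in them, 4.64 FPKM in OP mouse 1 and 9.22 to 12.9 FPKM in the other 3, and *Slc50a1*, a sugar carrier outside the families, had 62.3 and 62.5 FPKM in them and 14.7 to 30.9 FPKM in the other 4. These genes were picked after their values were seen.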
